A study of Homo sapiens with 4 samples.

Results

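The anaphase-promoting complex (APC/C) and the proteins around it were followed through 10 genes, chosen by name from their known roles. They were the coactivators CDC20 and FZR1, the inhibitors FBXO5 and MAD2L1, the ubiquitin-conjugating (E2) enzymes UBE2C and UBE2S, and the substrates PTTG1, SKP2, MKI67 and TOP2A. Earlier results of these data were known when these genes were chosen. Each symbol stood once among the 24462 gene symbols of the count tables, and all 10 passed the filter of 10 reads in every comparison. The cells were HepG2, a human liver cancer line grown in RPMI with fetal bovine serum. Some cells were given DMSO, the solvent, and others PD0332991, an inhibitor of the kinases CDK4 and CDK6. In the other arm, cells received scrambled siRNA oligos or siRNA oligos against both CDK4 and CDK6 (CDK4/6 KD). Each condition had 1 library, so no difference has a replicate check and no p-value is given. The dose, the length of exposure, the time after transfection and the number of siRNA oligos behind these libraries are not given in the sources used here.

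The APC/C is a ubiquitin ligase that marks proteins for the proteasome from mitosis into G1. With CDC20 bound it acts in mitosis on securin (PTTG1) and B-type cyclins, and with FZR1, also called CDH1, it stays active through G1. FBXO5, also called EMI1, blocks the FZR1-bound form as cells enter S phase, and MAD2L1 holds CDC20 back while the spindle checkpoint is on. UBE2C starts ubiquitin chains on APC/C substrates and UBE2S lengthens them. Genes of this group such as CDC20 are transcribed mostly in G2 and mitosis and kept down in resting cells by the RB family and the DREAM complex, which CDK4 and CDK6 counteract.

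The libraries held between 8983848 and 11176880 reads, and values are given as reads and as TMM-scaled CPM, reads relative to library size. The libraries were made from poly(A) 3′ ends, so a level is compared here between libraries for the same gene and not between genes. The 95% intervals are exact intervals on the split of reads between 2 libraries, and they cover counting error only. CDK4 had 814 reads in CDK4/6 KD, against 3789 in scrambled siRNA, 2754 in DMSO and 2344 in PD0332991. CDK6 had 1464 reads in CDK4/6 KD, against 5734, 4707 and 4361 in the same libraries. All 15 hepatocyte markers were counted in every library, among them ALB and AFP, with a summed level of 23029 to 30644 CPM. Keratinocyte markers differed between libraries. Of 21 such markers 11 could be compared between PD0332991 and DMSO, and 9 were at least 2-fold higher in PD0332991 (7.49% of all genes). In scrambled siRNA 7 of 10 were at least 2-fold higher than in DMSO (5.30% of all genes). The whole list summed to 245 CPM in PD0332991, 211 in DMSO, 214 in CDK4/6 KD and 376 in scrambled siRNA. Its member SFN was lower after PD0332991 (fold change: 0.463). Without KRT10 and SFN, the list summed to 106 CPM in PD0332991, 11.3 in DMSO, 23.2 in scrambled siRNA and 25.5 in CDK4/6 KD. S100A7 was at 0 in all 4 libraries, and the part of these reads in the results after PD0332991 was not tested. Fibroblast markers summed to between 9.16 CPM in scrambled siRNA and 81.9 in PD0332991. Leukocyte markers summed to between 513 and 1044 CPM, almost all of it LYZ and CD68, and without those to between 4.42 and 11.2 CPM, with CD3E and TYROBP at 0 throughout.

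Most of the group was lower in both arms, CDK4/6 KD and PD0332991 (together, the inhibited libraries), and lower after PD0332991 than in CDK4/6 KD. After PD0332991, 9 of the 10 genes were at least 2-fold lower than in DMSO, where 7.06% of 13443 genes were. The exception was FZR1. In CDK4/6 KD, 4 of the 10 were at least 2-fold lower than in scrambled siRNA, against 7.62% of 13617 genes, namely FBXO5, MAD2L1, PTTG1 and TOP2A. Most members were well counted, and among genes with 100 reads or more on average the same shares were 5.33% after PD0332991 and 5.55% in CDK4/6 KD. None of the 10 was at least 2-fold higher, where 7.49% of genes were after PD0332991 and 9.19% in CDK4/6 KD. The whole counting interval lay under 1 for 9 members after PD0332991 (28.6% of genes) and for 8 in CDK4/6 KD (31.9%). It lay above 1 for 0 members after PD0332991 (28.1%) and for 2 in CDK4/6 KD (30.0%), FZR1 and SKP2. For the 10 genes the median on the log2 scale was a fold change of -2.34 after PD0332991 and of -0.83 in CDK4/6 KD, beside medians over all compared genes of 0.02 and -0.00. The count in CDK4/6 KD was sensitive to its terms. It was 2 of 10 when total reads set the library size (6.23% of genes) and 7 of 10 when DMSO was the control (8.16% of genes). After PD0332991 it was 8 of 10 with scrambled siRNA as the control (8.17%).

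The control libraries also differed for these genes. Between scrambled siRNA and DMSO no member differed by 2-fold. Of 13303 genes 6.64% were at least 2-fold lower in scrambled siRNA (3.01% of the well counted ones) and 5.30% higher. The intervals of 9 members lay under 1, as they did for 28.0% of genes, and of 0 above it (28.3%). The median log2 fold change of the group was -0.50 between the controls, against 0.01 over all genes. Ordered by level, 8 of the 10 genes ran from DMSO through scrambled siRNA and CDK4/6 KD to PD0332991. The others were FZR1 and SKP2. PD0332991 was the lowest library for 9 genes, all but FZR1. CDK4/6 KD lay under both controls for 8 genes, all but FZR1 and SKP2. How many of all genes had these orders was not counted, so they describe the members alone. For UBE2S the interval between the controls included 1 (fold change: 0.934, interval 0.826 to 1.06). These libraries were made from whole cultures, so fewer dividing cells and less RNA per cell cannot be told apart.

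**Figure D1:**
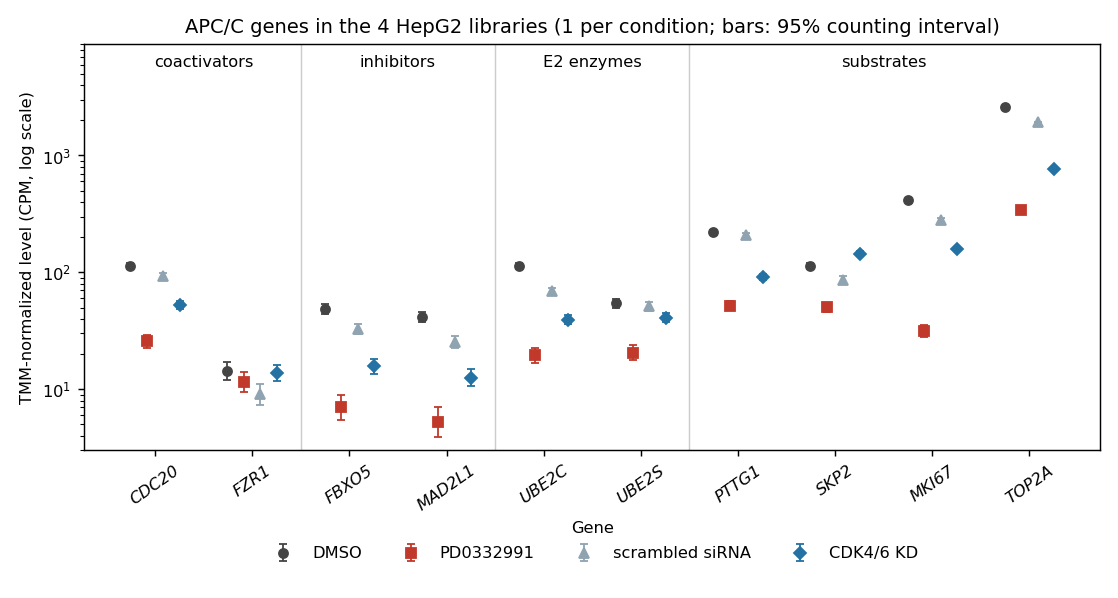
Level of each gene in CPM (log axis) in the DMSO, PD0332991, scrambled siRNA and CDK4/6 KD libraries, 1 library each, grouped by role; bars are exact 95% counting intervals. PD0332991 (squares) is lowest for 9 genes, while FZR1 stays between 9.07 and 14.4 CPM and SKP2 is highest in CDK4/6 KD at 144 CPM.

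The DNA before the start sites of these genes was examined for short motifs known from cell cycle promoters. RefSeq promoters (GRCh38.p14), running from 250 bases before to 50 after a start, were found by symbol for 9 of the 10 genes, all but UBE2C. The deposited counts were made on hg19 and carry no coordinates, so the promoters were joined by symbol alone. Both strands were searched for TTTGAA, the cell cycle genes homology region (CHR) bound by DREAM, for CCAAT, the NF-Y box, and for the E2F forms TTCCCGC and TTGGCGC. The 9 genes had 12 promoter entries, and shares over all 35116 promoters are per entry. CHR letters were in 6 of the 12 entries, from 6 genes, and in 15.2% of all promoters. CCAAT letters were in 8 entries, from 7 genes, and in 34.6% of all promoters. Both motifs, at any spacing, were present in 5 entries, those of CDC20, FBXO5, MAD2L1, MKI67 and TOP2A, and in 5.90% of all promoters. In MAD2L1 they lay far apart, with CHR letters 25 bases after the start and CCAAT letters 229 before it. The remaining entry with CHR letters was of FZR1, 226 bases before the start. TTCCCGC was found in 1 entry, of FZR1, and in 6.55% of promoters, and TTGGCGC in 0 of the 12 and in 3.04%. Below are the 250 bases before the start, 5′ to 3′ on the gene's strand, of 2 genes with both motifs (CDC20 and FBXO5), of the member with the lowest fold change after PD0332991 (MKI67) and of the member whose own highest library was CDK4/6 KD (SKP2). Capitals mark every match, on either strand.
CDC20, chr1:43358731-43358980, plus strand: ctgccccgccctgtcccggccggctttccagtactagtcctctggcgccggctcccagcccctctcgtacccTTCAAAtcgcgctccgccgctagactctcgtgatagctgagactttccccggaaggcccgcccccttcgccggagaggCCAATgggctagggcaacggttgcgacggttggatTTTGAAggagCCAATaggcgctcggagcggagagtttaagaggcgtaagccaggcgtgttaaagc
FBXO5, chr6:152983042-152983291, minus strand: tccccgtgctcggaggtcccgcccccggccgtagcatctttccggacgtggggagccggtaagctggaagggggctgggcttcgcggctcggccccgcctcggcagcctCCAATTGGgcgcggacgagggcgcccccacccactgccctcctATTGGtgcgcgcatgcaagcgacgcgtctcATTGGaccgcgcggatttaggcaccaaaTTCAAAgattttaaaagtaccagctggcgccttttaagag
MKI67, chr10:128126424-128126673, minus strand: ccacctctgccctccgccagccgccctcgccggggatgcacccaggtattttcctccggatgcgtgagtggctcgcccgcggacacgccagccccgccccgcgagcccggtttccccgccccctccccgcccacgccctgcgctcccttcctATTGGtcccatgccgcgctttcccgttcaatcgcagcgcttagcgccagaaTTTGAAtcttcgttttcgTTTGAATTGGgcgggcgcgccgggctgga
SKP2, chr5:36151861-36152110, plus strand: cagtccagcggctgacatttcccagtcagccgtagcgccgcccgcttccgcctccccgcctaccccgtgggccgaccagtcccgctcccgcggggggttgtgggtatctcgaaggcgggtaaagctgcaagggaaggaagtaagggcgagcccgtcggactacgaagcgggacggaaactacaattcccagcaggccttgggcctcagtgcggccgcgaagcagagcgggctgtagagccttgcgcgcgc
In CDC20 the CHR letters nearest the start began 65 bases before it, between CCAAT letters at 100 and 55. In FBXO5 they began 40 bases before the start, and 2 of its 4 CCAAT matches overlap each other on opposite strands. A second FBXO5 start held no match. MKI67 had CHR letters at 47 and 29 bases before the start, the nearer of them overlapping a CCAAT match on the other strand. SKP2 held none of the 4 motifs in this window. A match shows that the letters are there and not that a factor binds.

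Of the coactivators, CDC20 was lower in both arms and FZR1 did not follow it. CDC20 had 1044 reads in DMSO, 235 in PD0332991, 1003 in scrambled siRNA and 594 in CDK4/6 KD, or 114, 25.8, 93.7 and 52.5 CPM. Its fold change was 0.226 after PD0332991 (95% interval 0.195 to 0.26) and 0.56 in CDK4/6 KD (interval 0.505 to 0.62). Both inhibited libraries lay under both controls. FZR1, which carries the APC/C through G1, had 132 reads in DMSO, 105 in PD0332991, 97 in scrambled siRNA and 157 in CDK4/6 KD, or 14.4, 11.5, 9.07 and 13.9 CPM. Its lowest library was a control, scrambled siRNA, and the intervals of the other 3 libraries overlapped. The interval of scrambled siRNA (7.35 to 11.1 CPM) also overlapped that of PD0332991 (9.43 to 14 CPM). Against scrambled siRNA, FZR1 was higher in CDK4/6 KD (a fold change of 1.53, interval 1.18 to 1.99). Against DMSO its interval included 1 (fold change: 0.96, interval 0.757 to 1.22). After PD0332991 its interval included 1 with either control (fold change: 0.799, interval 0.612 to 1.04, against DMSO and 1.27, interval 0.956 to 1.69, against scrambled siRNA). The 3′ end of FZR1 overlaps MFSD12 on the opposite strand in GENCODE 29, and MFSD12 had 19 to 40 reads a library. The sources used here do not say if reads were counted by strand.

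The inhibitors were among the lowest genes after PD0332991. FBXO5, the inhibitor of the FZR1-bound complex, had 445 reads in DMSO, 64 in PD0332991, 352 in scrambled siRNA and 179 in CDK4/6 KD, or 48.7, 7.03, 32.9 and 15.8 CPM. The fold change was 0.145 after PD0332991 (interval 0.109 to 0.188) and 0.481 in CDK4/6 KD (interval 0.399 to 0.577). MAD2L1, the checkpoint protein, had 379, 48, 272 and 142 reads in the same order, or 41.5, 5.27, 25.4 and 12.5 CPM. Its fold change was 0.128 after PD0332991 (interval 0.0921 to 0.172) and 0.494 in CDK4/6 KD (interval 0.4 to 0.607). Counted from the lowest fold change after PD0332991, MAD2L1 stood at 112 and FBXO5 at 143 of 13443 genes. In CDK4/6 KD they stood at 1007 and 922 of 13617, close to the 2-fold line, and their intervals crossed it.

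The E2 enzymes differed from each other. UBE2C, which starts chains, had 1044 reads in DMSO, 178 in PD0332991, 734 in scrambled siRNA and 447 in CDK4/6 KD, or 114, 19.5, 68.6 and 39.5 CPM. UBE2S, which extends them, had 500, 187, 547 and 463 reads, or 54.7, 20.5, 51.1 and 40.9 CPM. UBE2C was lower in every other library than in DMSO, scrambled siRNA included (fold change: 0.601, interval 0.546 to 0.66), while the interval of UBE2S between the controls included 1 (fold change: 0.934, interval 0.826 to 1.06). After PD0332991 the fold change was 0.171 for UBE2C (interval 0.145 to 0.201) and 0.376 for UBE2S (interval 0.316 to 0.445), and the intervals did not overlap. In CDK4/6 KD it was 0.576 for UBE2C (interval 0.511 to 0.648) and 0.8 for UBE2S (interval 0.705 to 0.907). The 3′ end of UBE2S overlaps the ribosomal protein gene RPL28 on the opposite strand in GENCODE 29. RPL28 had 2499 to 3535 reads a library. Its fold change was 1.42 after PD0332991 (interval 1.35 to 1.49) and 0.932 in CDK4/6 KD (interval 0.884 to 0.982). Whether its reads entered the UBE2S counts was not tested. GENCODE 29 also lists copies named for UBE2C (4), UBE2S (2), CDC20 (1) and MKI67 (1), which were not analysed here.

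Among the substrates, PTTG1, MKI67 and TOP2A were lower in both arms. PTTG1, securin, which holds separase inactive until anaphase, had 2030 reads in DMSO, 472 in PD0332991, 2212 in scrambled siRNA and 1029 in CDK4/6 KD, or 222, 51.8, 207 and 90.9 CPM. Its controls were close (fold change: 0.93, interval 0.876 to 0.989), and the inhibited libraries lay under both. The fold change was 0.44 for CDK4/6 KD (0.408 to 0.474) and 0.234 for PD0332991 (0.211 to 0.258). The intronless relatives PTTG2 and PTTG3P had rows of their own, with 15 to 63 and 47 to 268 reads. Their fold changes after PD0332991 were 0.266 and 0.275, and in CDK4/6 KD 0.544 and 0.375. Reads shared between such near-identical copies could have been split among the 3 rows, so the PTTG1 count is less certain than the others.

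MKI67 encodes the proliferation antigen Ki67. It had 3785 reads in DMSO, 285 in PD0332991, 3017 in scrambled siRNA and 1791 in CDK4/6 KD, or 414, 31.3, 282 and 158 CPM. Its fold change was 0.0757 after PD0332991 (interval 0.0668 to 0.0852) and 0.561 in CDK4/6 KD (interval 0.529 to 0.595). The former was number 36 from the lowest of 13443 genes. TOP2A, the topoisomerase that untangles sister chromatids, had 23894, 3109, 20578 and 8600 reads, or 2615, 341, 1923 and 760 CPM. Its fold change was 0.131 after PD0332991 (interval 0.126 to 0.136) and 0.395 in CDK4/6 KD (interval 0.385 to 0.405), the lowest of the 10 genes in the latter comparison. TOP2A and PTTG1 were the genes whose whole interval lay past 2-fold in CDK4/6 KD, where 3.22% of all genes passed that rule.

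SKP2 was higher in CDK4/6 KD and lower after PD0332991. SKP2 is the F-box protein of an SCF ubiquitin ligase that targets the CDK inhibitor p27, and the FZR1-bound APC/C degrades it in G1. It had 1029 reads in DMSO, 456 in PD0332991, 926 in scrambled siRNA and 1630 in CDK4/6 KD, or 113, 50.1, 86.5 and 144 CPM. The CDK4/6 KD library was the highest of the 4 and PD0332991 the lowest, and no intervals of the 4 levels overlapped. The fold change was 1.66 in CDK4/6 KD (interval 1.53 to 1.81) and 0.445 after PD0332991 (interval 0.397 to 0.497). With the control libraries exchanged, it was 1.28 for CDK4/6 KD (1.18 to 1.38) and 0.579 for PD0332991 (0.516 to 0.648), so the directions did not depend on the control.

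**Figure D2:**
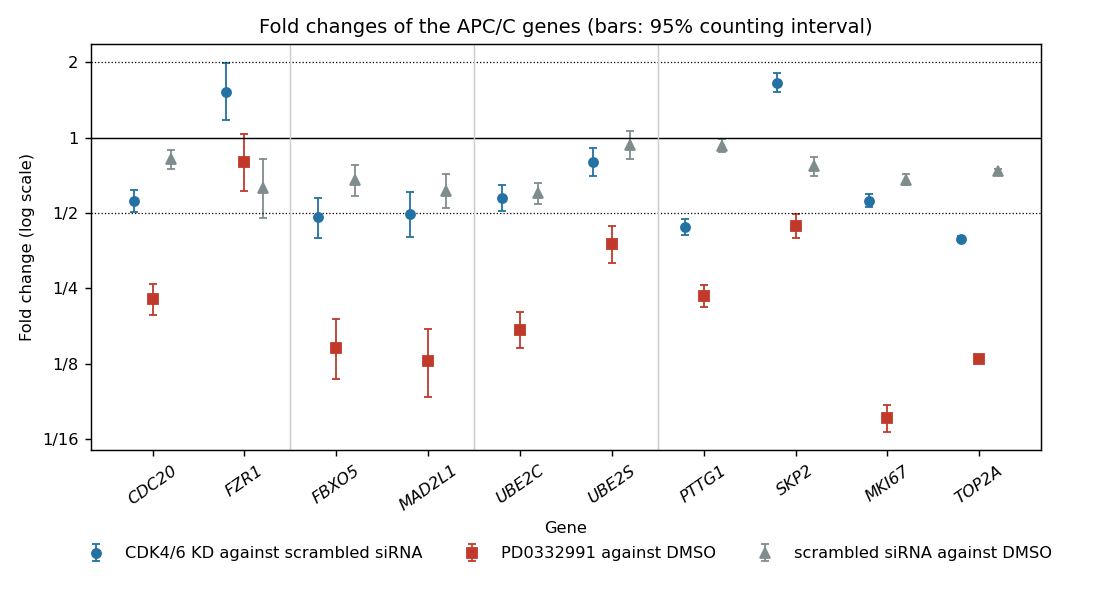
Fold change of each gene (log axis) in CDK4/6 KD against scrambled siRNA, PD0332991 against DMSO and scrambled siRNA against DMSO, with 95% counting intervals; dotted lines mark 2-fold. SKP2 and FZR1 lie above 1 in CDK4/6 KD (1.66 and 1.53), and MKI67 is lowest after PD0332991 at 0.0757.

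Set side by side, the fold change in CDK4/6 KD was above that after PD0332991 for all 10 genes. How many of all genes showed this was not counted, so it describes the members alone. The gap between the control libraries, a median log2 fold change of -0.50 for the members, also enters this comparison. The quotient of the former by the latter ran from 1.88 for PTTG1 (95% counting interval 1.66 to 2.13) to 7.42 for MKI67 (interval 6.49 to 8.48). It was 3.74 for SKP2 and 3.86 for MAD2L1. For FZR1 it was 1.91 (interval 1.33 to 2.74), the gene with the fewest reads. The FZR1 levels in CDK4/6 KD (11.8 to 16.2 CPM) and PD0332991 (9.43 to 14 CPM) overlapped. The 2 arms differ in agent, in delivery and in control library, and these quotients describe the 4 libraries.

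Ratios of reads within a library do not depend on how libraries are scaled. The ratio of FBXO5 to FZR1, an inhibitor to the coactivator it blocks, was 3.37 in DMSO (interval 2.77 to 4.13) and 3.63 in scrambled siRNA (interval 2.89 to 4.59). It was 1.14 in CDK4/6 KD (interval 0.915 to 1.42) and 0.61 in PD0332991 (interval 0.44 to 0.84). Both inhibited libraries lay under both controls with no overlap of intervals. The ratio of CDC20 to FZR1, the mitotic to the G1 coactivator, was 7.91 in DMSO, 10.3 in scrambled siRNA, 3.78 in CDK4/6 KD and 2.24 in PD0332991, again with no overlap between controls and inhibited libraries. The ratio of UBE2C to UBE2S was 2.09 in DMSO and 1.34 in scrambled siRNA, against 0.965 in CDK4/6 KD and 0.952 in PD0332991. The controls differed from each other here, and the intervals of the inhibited libraries overlapped.

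**Figure D3:**
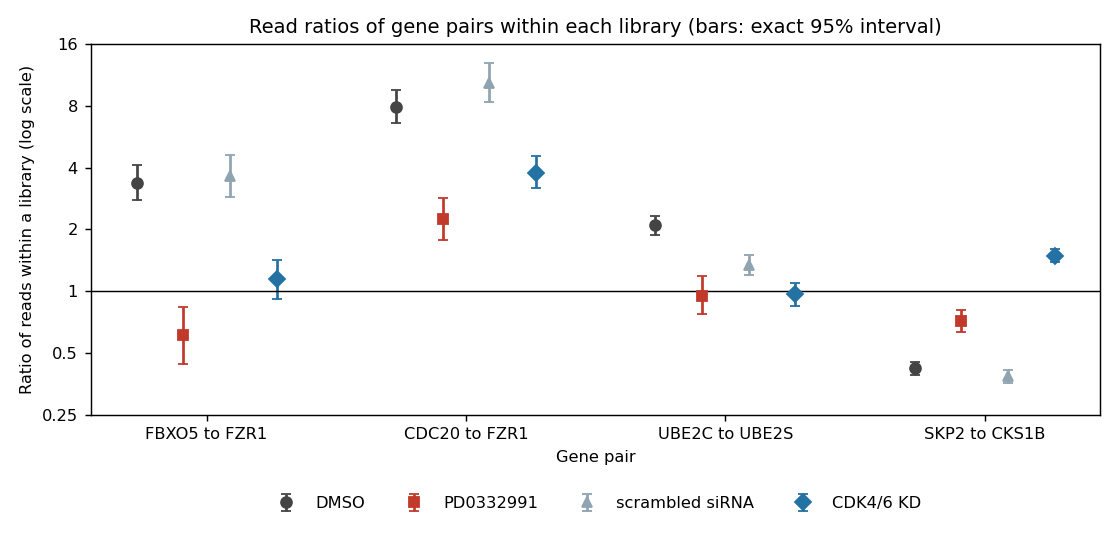
Ratio of reads of 2 genes within each library (log axis) for 4 gene pairs, with exact 95% intervals. FBXO5 to FZR1 is at 3.37 and 3.63 in the controls and at 1.14 and 0.61 in the inhibited libraries, and SKP2 to CKS1B is highest in CDK4/6 KD at 1.49.

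All 14 core subunits of the APC/C were measured. In CDK4/6 KD 0 of 14 were at least 2-fold lower (7.62% of all genes) and 0 higher (9.19%). The interval lay under 1 for 6 (31.9% of all genes) and above it for 4 (30.0%). After PD0332991, 2 of 14 were at least 2-fold lower (7.06% of all genes), the scaffold subunit CDC23 and ANAPC10, a subunit that takes part in substrate binding (both with a fold change of 0.421). The median log2 fold change of the subunits was -0.18 in CDK4/6 KD, -0.33 after PD0332991 and -0.18 between the controls. CDC23 and the large scaffold ANAPC1 were lower in both arms (fold changes of 0.61 and 0.701 in CDK4/6 KD, and 0.625 for ANAPC1 after PD0332991). ANAPC7 had a fold change of 0.705 in CDK4/6 KD. The values farthest from 1 there lay above it, 1.96 for CDC26 (interval 1.44 to 2.73) and 1.81 for ANAPC13 (interval 1.64 to 2.01). ANAPC15 was at 1.48. The small subunit CDC26 differed between the controls, with 60 reads in scrambled siRNA and 116 in DMSO (fold change: 0.444, interval 0.318 to 0.608).

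Checkpoint kinases and other regulators followed CDC20 and MAD2L1 in part. Of 12 such genes 11 could be compared, and 4 were at least 2-fold lower in CDK4/6 KD (7.62% of all genes) and 5 after PD0332991 (7.06%), with medians of -0.59 and -0.81. The checkpoint kinase BUB1 had 298 reads in DMSO, 27 in PD0332991, 297 in scrambled siRNA and 133 in CDK4/6 KD. Its fold changes were 0.0924 after PD0332991 and 0.424 in CDK4/6 KD. BUB1B, which binds CDC20 in the checkpoint complex, had fold changes of 0.148 after PD0332991 and 0.456 in CDK4/6 KD. TTK, the kinase at the top of the checkpoint, had a fold change of 0.149 after PD0332991. BUB3, the partner of BUB1 and BUB1B, had 2063 to 3705 reads and the fold changes 0.69 after PD0332991 and 1.14 in CDK4/6 KD. PPP2R5A, a regulatory subunit of phosphatase PP2A, was lowest of the list in CDK4/6 KD (a fold change of 0.38, interval 0.31 to 0.461). After PD0332991 its interval included 1 (fold change: 1.08).

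Other substrates of the APC/C were lower throughout after PD0332991. All 28 of the list could be compared, SGO1 under its older symbol SGOL1. After this treatment, 28 of 28 were at least 2-fold lower (7.06% of all genes), from 0.0466 for RRM2 to 0.385 for CKAP2. The ribonucleotide reductase subunit RRM2, the origin licensing factor CDC6 (0.0572) and the cohesin regulator CDCA5 (0.057) had the interval ends farthest under 1. In CDK4/6 KD 9 of 28 were at least 2-fold lower (7.62% of all genes), among them RRM2 (0.151), the phosphatase CDC25A (0.275) and CDCA3 (0.277). The medians were -2.67 and -0.83, beside -0.54 between the controls. Against DMSO, 26 of 28 were at least 2-fold lower in CDK4/6 KD, where 8.16% of all genes were. Geminin (GMNN), the licensing inhibitor degraded in G1, had a fold change of 0.987 in CDK4/6 KD (interval 0.897 to 1.09) and of 0.331 after PD0332991. The midzone protein PRC1 was 1.07 in CDK4/6 KD (interval 0.953 to 1.21) on a scrambled siRNA library already lower than DMSO (fold change: 0.379, interval 0.341 to 0.42).

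The partners of SKP2 in its ligase were mixed. CKS1B, the cofactor SKP2 needs to bind p27, had 2440 reads in DMSO, 640 in PD0332991, 2411 in scrambled siRNA and 1091 in CDK4/6 KD. Its fold change was 0.428 in CDK4/6 KD (interval 0.398 to 0.46), where that of SKP2 was above 1. The ratio of SKP2 to CKS1B was 0.422 in DMSO, 0.384 in scrambled siRNA, 0.713 in PD0332991 and 1.49 in CDK4/6 KD. CUL1, the scaffold of SCF, lay on the same side of 1 as SKP2 in both arms, with a fold change of 1.13 for CDK4/6 KD (1.03 to 1.25) and 0.763 for PD0332991 (0.679 to 0.857). The adaptor SKP1 was at 1.1 for CDK4/6 KD (1.04 to 1.16) and 0.959 for PD0332991 (0.902 to 1.02). RBX1, the RING subunit, was lower in both (0.801 and 0.747). CDKN1B, which encodes p27, was at 1.18 for CDK4/6 KD (1.05 to 1.32) and 0.701 for PD0332991 (0.609 to 0.805). The median over the 12 genes of the list was 0.01 for CDK4/6 KD and -0.30 for PD0332991 on the log2 scale, with 3 and 2 genes at least 2-fold lower (7.62% and 7.06% of all genes). CCNF, the F-box protein cyclin F, was among them in both (0.441 and 0.163). CDKN1A, which encodes p21, had 1196 reads in DMSO, 1508 in PD0332991, 3543 in scrambled siRNA and 1328 in CDK4/6 KD. Its fold change was 2.53 between the controls, 0.354 in CDK4/6 KD and 1.27 after PD0332991 (interval 1.17 to 1.37). The CDK4/6 KD level of 117 CPM was near that of DMSO (131 CPM). BTRC, an F-box protein that marks FBXO5 for degradation, was higher in CDK4/6 KD (1.39) and after PD0332991 (1.45). FBXW11, another F-box protein of the list, was at 1.24 in CDK4/6 KD (1.03 to 1.5). After PD0332991 it was lower, at 0.574 (0.458 to 0.714).

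**Figure D4:**
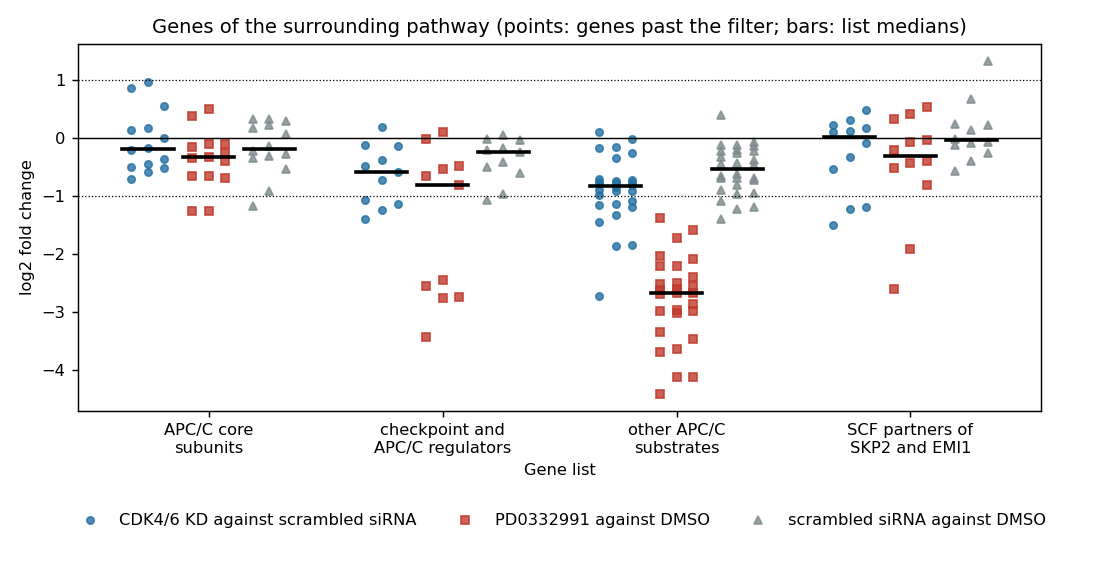
log2 fold change of every comparable gene in 4 lists around the APC/C, for the 3 comparisons, with a bar at each list's median and dotted lines at 2-fold. Other APC/C substrates after PD0332991 lie around -2.67, while core subunits lie around -0.33 and SCF partners around -0.30.

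Among 9219 other genes averaging 100 reads or more, those whose profile over the 4 libraries lay nearest to the mean profile of the 10 members were STMN1, PSRC1, FOXM1, CENPJ and RBL1. Their distances, in log2 CPM centred on each gene's own mean, were 0.08, 0.08, 0.13, 0.13 and 0.15. STMN1 encodes a tubulin-binding protein, with 3934 reads in DMSO, 787 in PD0332991, 3285 in scrambled siRNA and 2298 in CDK4/6 KD. FOXM1 encodes a transcription factor of G2 and mitotic genes. Of the members, CDC20 lay nearest to their mean at 0.17 and FZR1 farthest at 1.68, with SKP2 at 1.22 and MKI67 at 1.21. The mean includes each member, and 4 libraries give few degrees of freedom for such a likeness.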

How the data were processed

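Total RNA of HepG2 cells (500 ng per library) was made into QuantSeq 3′ libraries and sequenced single-end. Tables of raw counts by gene symbol were deposited without normalization, 1 per library. The submitters' processing notes name Bowtie2, edgeR and hg19, and the counter, the annotation and the use of strand are not given in the sources used here. Conditions were taken from the sample titles. Among 25737 rows, 286 symbols recurred and their counts were summed, and none of the 10 genes was among them. Library sizes were scaled with TMM (edgeR 4.0.16, R 4.3.3), with factors from 0.957 to 1.03. Fold changes used 0.5 reads added to each count and were limited to genes where either library had 10 reads or more. Intervals are 95% Clopper-Pearson intervals on the split of reads (scipy 1.17.1), and those of levels are exact Poisson intervals. They cover counting error only. No test was made, since edgeR's quasi-likelihood fit needs replicates. The quotient of 2 fold changes has a normal interval on the log scale.

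The members and lists were chosen with earlier results of these data known, the keratinocyte list among them, as were the gene pairs. Named beside the members were up to 3 genes of each list per comparison, in the direction of its median and ranked by the interval end nearest to 1, and the 5 genes of nearest profile. BUB3, CKAP2, GMNN, PRC1, CDC26, ANAPC13, ANAPC15, CKS1B, CUL1, RBX1, SFN, CCNF, CDKN1A, BTRC, FBXW11, RPL28, MFSD12, PTTG2 and PTTG3P were named for some values after these were seen. Fold changes were checked on simulated counts. The alternatives were DESeq2 size factors (DESeq2 1.42.0), total counts, quantile normalization (limma 3.58.1), no filter, a filter of 50 reads, 5 added reads, the largest entry of each recurring symbol, the other control, 1.5-fold, and the whole interval past 2-fold.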

Additional observations from a re-analysis of the deposited data

Results flagged for a closer look

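SKP2 differed in direction between the arms. Its log2 fold change was 0.73 in CDK4/6 KD against scrambled siRNA and -1.17 after PD0332991 against DMSO, and neither interval reached 0. With 1 library per condition the difference between the arms was not tested. No group had enough libraries to look for a sample far from the others.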

How the results depend on the processing

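With 1 library per condition, leaving out a library was not possible. No paired analysis was possible because each condition has 1 library and the labels carry no replicate numbers. DESeq2 size factors, both filters, 5 added reads and the largest entry of each recurring symbol moved no fold change of the 10 genes beyond its counting interval. Total counts or quantile normalization moved 6 such values, none to the other side of 1. Total counts shifted the median log2 fold change of all genes in CDK4/6 KD to 0.10. The number of members at least 2-fold lower in CDK4/6 KD, 4 of 10, became 2 with total counts (6.23% of all genes) and 3 with 5 added reads. It became 7 at 1.5-fold (where 17.4% of all genes passed), 2 if an interval had to clear 2-fold entirely, and 7 against DMSO. Between the controls the number rose from 0 to 3 at 1.5-fold, where 15.7% of all genes passed. Exchanging the controls moved the median log2 fold change of the members from -0.83 to -1.34 in CDK4/6 KD and from -2.34 to -1.93 after PD0332991. It turned the log2 fold change of FZR1 in CDK4/6 KD from 0.61 to -0.06, the only called direction to reverse among 230 member values. FZR1 after PD0332991 also went from -0.32 to 0.35, with both intervals including 0. The count after PD0332991 stayed within 1.5 times under all alternatives run. Depth limits FZR1 (97 to 157 reads a library) throughout, and MAD2L1 and FBXO5 after PD0332991 (48 and 64 reads).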

Other observations

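The ratio of MAD2L1 to CDC20 reads, the checkpoint inhibitor to its target, was 0.363 in DMSO (95% interval 0.322 to 0.409), 0.271 in scrambled siRNA (0.236 to 0.31), 0.239 in CDK4/6 KD (0.198 to 0.288) and 0.204 in PD0332991 (0.147 to 0.28). DMSO stood above the other 3 libraries, whose intervals overlapped. The ratio of PTTG1, securin, to ESPL1, the separase it inhibits, was 22.6 in DMSO (18.3 to 28.2), 44.2 in scrambled siRNA (33.4 to 59.8), 29.4 in CDK4/6 KD (21 to 42.4) and 29.5 in PD0332991 (18 to 52). It rested on 16 to 90 reads of ESPL1, and the inhibited libraries lay between the controls.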
